A study of Mus musculus with 12 samples.

Results

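This report follows the genes of the enzymes that metabolise drugs and other foreign compounds in the developing mouse kidney and in kidney organoids rebuilt from progenitor cells. The members were chosen by gene name: cytochrome P450 families Cyp1 to Cyp4, UDP-glucuronosyltransferases Ugt1a, Ugt2a and Ugt2b, glutathione S-transferases of the alpha, mu, pi, theta, omega and kappa classes, and sulfotransferases Sult1 to Sult5. Of 34650 gene names on the array, 126 matched, and 95 of them had a probe well above background on at least 1 of the 12 arrays. The remaining 31 names were above background on no array and are not described further. Of the 95 members, 46 were above background on all 12 arrays, 35 on 2 to 11 arrays and 14 on 1 array only.

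Each array was a one-colour mouse expression array hybridised with 1 sample. The kidneys came from ICR wild type mice, taken whole without the ureter at 4 embryonic stages (E11.5 to E17.5, in steps of 2 days) and at P0, the day of birth, and 1 further E11.5 kidney sample had been cultured for 7 days. In the organoids, the nephron progenitor and ureteric bud parts derived from mouse embryonic stem cells (B6 and 129SV background) and the stromal progenitors were taken from E11.5 ICR kidneys, so that each organoid held cells of both origins; 3 samples were taken directly after reconstruction (day 0) and 3 after 7 days of culture (day 7). Cultured kidneys and organoids were kept on a transwell with Matrigel in medium with fetal bovine serum. Each kidney stage and the cultured kidney had 1 array, and the labels do not say how many animals or separate organoids went into a sample, so p-values below measure only the spread between these arrays, which may be technical.

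Phase I enzymes, chiefly the P450s, add or expose a reactive group on a compound, with electrons supplied by P450 reductase. Phase II enzymes then attach a sugar acid (Ugt), a sulfate (Sult) or glutathione (Gst), and transporters carry the product out of the cell. In the kidney these enzymes are best known from the proximal tubule, where P450s of the Cyp4a and Cyp2j subfamilies also oxidise fatty acids such as arachidonic acid. Among their known regulators, HNF4A drives proximal tubule and liver genes, the aryl hydrocarbon receptor AHR induces Cyp1 genes, and NRF2 induces many glutathione S-transferases.

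A level below is the log2 of a probe's processed signal minus the log2 of that array's 75th percentile, so 0 means a signal at the 75th percentile, and a difference of 1 is a 2-fold change. Levels are compared between arrays for the same gene, not between genes. A fold given as "at least" sets the brighter group against the dimmest signal called well above background, because the gene was above background on no array of the dimmer group. The 75th percentile itself was a signal of 126 to 138 on the day 0 arrays and of 201 to 287 on the other 9, so low genes were harder to detect at day 0. There 50 to 53 members were above background, against 60 to 62 at day 7, 61 at E11.5, E13.5 and in the cultured kidney, and 79 or 80 from E15.5 to P0. Of all probes, 50.6% to 54.2% were above background at day 0 and 57.3% to 58.1% at day 7. The share was 56.1% to 59.8% at E11.5, E13.5 and in the cultured kidney, and 60.2% to 63.2% from E15.5 to P0. Members, unlike all probes, were kept for being above background on at least 1 array.

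Promoter sequence is shown for 2 members that the results below turn on and that carry the letters of a searched motif. They were picked after the values and the matches had been seen. RefSeq (build GRCm38.p6) gave windows of 250 bases before and 50 after the start for 75 of the 95 members, 85 windows in all. The AHR core motif GCGTG, searched on both strands, was found in 23.5% of the members' windows and in 32.4% of all windows. These letters are shown in capitals, in the 250 bases before the start, for both Cyp1 members, the P450s known as AHR targets, whose levels rose in culture. The letters alone do not mark a site used by AHR, and sites farther from the start were not searched.
Cyp1a1, chr9:57697363-57697612, plus strand: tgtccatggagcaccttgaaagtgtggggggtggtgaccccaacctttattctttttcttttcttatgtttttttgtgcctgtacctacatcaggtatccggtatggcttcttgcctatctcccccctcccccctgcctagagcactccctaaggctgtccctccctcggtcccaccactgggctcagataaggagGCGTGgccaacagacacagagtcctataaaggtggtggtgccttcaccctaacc
Cyp1b1, chr17:79715062-79715311, minus strand: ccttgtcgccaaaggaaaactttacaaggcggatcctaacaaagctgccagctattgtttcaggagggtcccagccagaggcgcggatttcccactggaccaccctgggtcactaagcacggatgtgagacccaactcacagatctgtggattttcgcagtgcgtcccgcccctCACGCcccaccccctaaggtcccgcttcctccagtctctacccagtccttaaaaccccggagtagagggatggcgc
In these windows the match begins 54 bases before the start for Cyp1a1 and 76 for Cyp1b1 (reverse strand). The NRF2-type motif TGANNNNGC, on either strand, was in 48.2% of the members' windows and 41.3% of all windows. A match describes the letters of the window only; binding was not measured.

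Across the kidney stages, most of the change was upward, and more members rose in each of the steps from E13.5 to E17.5 than before or after them. The slope of the level over the 5 stages, counted as 1 step each, was tested with limma for 92 members: 39 rose, 3 fell and 50 were not called at an adjusted p of 0.05. Over all 25970 genes tested, 8.74% rose and 9.57% fell; of the members tested, 42.4% rose and 3.26% fell. The median slope was 0.35 log2 per stage for the members and -0.06 for all genes. These calls rest on 1 array per stage and changed when single arrays were left out. Without the E17.5 array or without the P0 array no member passed, and without E15.5 26 members rose and none fell. Over all genes, leaving out 1 array also took the counts as low as 0 rising and 0 falling, so this loss is not particular to the members. Bulk tissue cannot separate more cells of a type from more RNA per cell, here or below. Markers moved with the stages: 16 of 18 proximal tubule markers rose, with a summed level, in units of the array's 75th percentile, of 2.1 at E11.5 and 1050 at P0; 5 of 10 collecting duct and urothelial markers rose and 1 fell, and 3 of 8 erythroid markers fell. Their part in the enzyme slopes was not tested.

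The steepest riser was Sult1d1, a sulfotransferase of catecholamines, at 2.85 log2 per stage (SE 0.46, limma adjusted p = 0.0238, not called without any 1 of E11.5, E13.5, E17.5 or P0). Its level was -7.19 at E11.5, -5.54 at E13.5, 0.92 at E15.5, 2.67 at E17.5 and 2.94 at P0, so most of the rise fell between E13.5 and E17.5. Sult1d1 was not above background at E11.5 or E13.5, so its slope and rank rest partly on undetected readings. Gsta2, an alpha-class glutathione S-transferase, went from -4.64 at E11.5 through -2.59, 2.35 and 5.27 to 5.39 at P0, a slope of 2.79 (SE 0.35, adjusted p = 0.0158). Cyp2d26, of the large drug-metabolising Cyp2d subfamily, went from -3.78 and -3.38 to 3.08, 4.45 and 4.94. Unlike these, Cyp4a32, one of the fatty acid hydroxylases, was still climbing at birth: it read -7.38, -6.23, -2.13, -1.10 and 1.94. Sult1c2 (slope 2.34) and Ugt2b5 (slope 2.32) completed the 6 largest slopes. Besides the loss of every call without E17.5 or P0, Gsta2 and Cyp2d26 were not called without E11.5. Ugt2b5 was not called without any 1 stage.

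By family, all 3 Ugt1 members rose (Ugt1a6a, Ugt1a6b and Ugt1a10, whose genes share a locus and differ in their first exon), as did 4 of 7 Ugt2 members, 13 of 33 Cyp2 members tested, 7 of 16 Cyp4 members, 7 of 18 glutathione S-transferases and 4 of 9 sulfotransferases. Genes undetected at early stages entered through later ones, which bears on these counts. Within the P450s the subfamilies split. All 6 Cyp2j members and 5 of 6 Cyp4a members rose, while 0 of 10 Cyp2c and 0 of 7 Cyp4f members were called either way. Genes of 1 cluster could move alike: the 6 Ugt2b probes lie between 87318849 and 87839404 on chromosome 5 (mm9, per the file headers), and 4 of them rose. The 10 Cyp2d probes lie between 82204377 and 82620634 on chromosome 15, and 5 of the 9 tested rose. Close paralogs can cross-hybridise: the chosen probes of Cyp4a10 and Cyp4a31 share 44 of 47 aligned bases and their levels correlated at 0.99 over the 12 arrays (a description), so these 2 count as uncertain separate readings.

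Ugt1a6a was above background on 2 arrays only. The 3 members that fell were Cyp4b1-ps2, a pseudogene (slope -1.01), Sult2a7 (slope -0.64) and Sult4a1, a brain-type sulfotransferase (slope -0.31). Sult4a1 moved from -2.12 at E11.5 to -3.19 at P0 and lost its call when several probes were averaged or when arrays were scaled by their median. Sult2a7 was above background on 1 array only. Cyp4b1-ps2 lost its call when any 1 stage was left out.

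**Figure D1:**
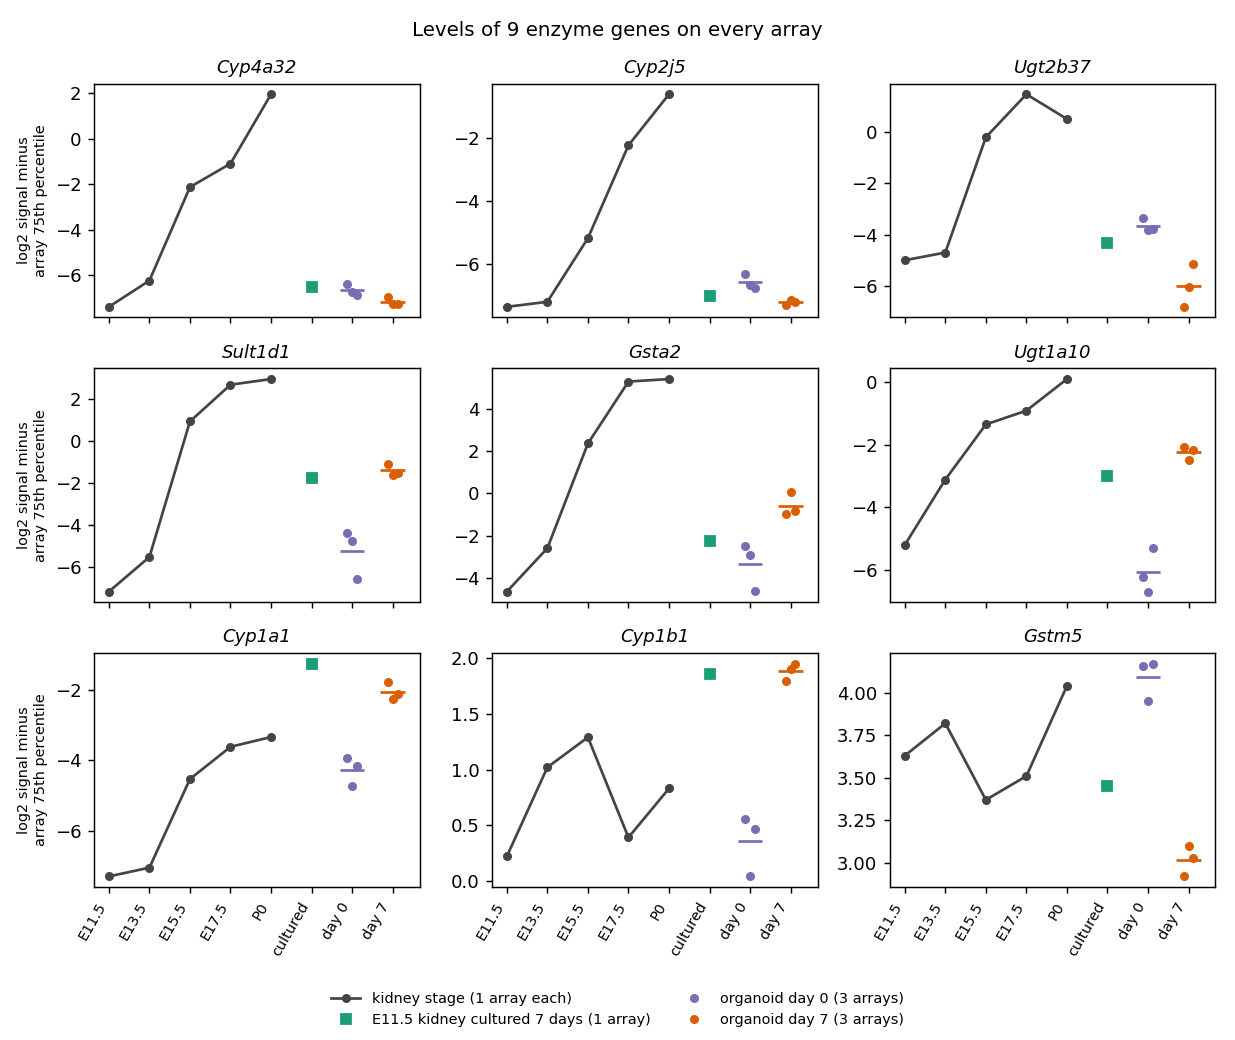
Log2 level (signal minus the array's 75th percentile, y axis, scaled per gene) of 9 members on all 12 arrays (x axis); dots are single arrays and the short bars mark the mean of 3 organoid arrays. Cyp4a32, Cyp2j5 and Ugt2b37 rise in the kidney and stay low at day 7, Sult1d1, Gsta2 and Ugt1a10 rise part of the way in culture, and both Cyp1 genes are higher at day 7 and in cultured kidney than at P0.

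Comparing neighbouring stages, 1 array against 1 array, gives sizes without a replicate check. A gene counted as changed when it passed 2-fold and its brighter array was well above background. An undetected dimmer reading was taken as it stood, so some genes counted have a bound under 2-fold. From E11.5 to E13.5, 12 of 68 members were higher and 7 lower (5.30% and 8.94% of all genes). From E13.5 to E15.5, 32 of 80 were higher and 0 lower, against 9.83% higher and 1.74% lower over all genes; the median difference was 0.75 for the members and -0.10 for all genes, and 0.50 for the members with undetected sides set at their bounds. From E15.5 to E17.5, 26 of 86 were higher and 4 lower (5.04% and 2.71% of all genes), and from E17.5 to P0 16 of 86 were higher and 8 lower (4.09% and 3.87%). With normexp background correction, which shrinks differences near background, the 4 upward counts were 4, 14, 17 and 8. No share over all genes under normexp was set beside them.

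The members named for each step were mostly different ones. At E13.5 they were the phenol sulfotransferase Sult1a1 (6.83-fold over E11.5), Ugt1a6b (6.69-fold), and 2 genes not above background at E11.5, Ugt2b34 (at least 6.03-fold) and the oestrogen sulfotransferase Sult1e1 (at least 3.32-fold). At E15.5 Cyp2d26 was 88.1-fold over E13.5, Sult1d1 at least 62.9-fold, Ugt2b5 at least 32.3-fold and Ugt2b36 at least 12.2-fold. At E17.5 it was Cyp2e1, the ethanol-oxidising P450 (11.6-fold over E15.5), Cyp2j5, a renal arachidonic acid epoxygenase (7.75-fold), Gsta2 (7.56-fold) and Cyp3a16 (at least 2.01-fold, the only array on which it was above background). At birth it was Cyp4a14, a fatty acid omega-hydroxylase, which read -5.87, -6.45, -5.53 and -4.88 up to E17.5 and 0.30 at P0 (36.2-fold), then Cyp4a32 (8.21-fold), Cyp4f41-ps (at least 2.64-fold) and Cyp2c44, now named Cyp2c23 in RefSeq (at least 2.13-fold). Cyp4f41-ps, a pseudogene, also dropped from -3.93 at E15.5 to -7.68 at E17.5, so it did not follow the stages in order.

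Most of the downward differences named here ended below background, so their folds are lower bounds. At E13.5 they were Cyp2b13 (at least 1.11-fold lower), Cyp4f37 (at least 2.49-fold), Cyp4b1-ps2 (3.98-fold) and Sult2a7 (at least 1.61-fold). At E17.5 they were Cyp4f41-ps (at least 2.68-fold lower), Cyp2c50 (at least 1.79-fold), Cyp2c66 (at least 2.81-fold) and Cyp2c55 (at least 1.98-fold). At P0 they were Cyp3a16 (at least 1.67-fold lower), Cyp4b1-ps2 (at least 1.38-fold), Ugt2b35 (at least 2.49-fold) and Cyp2d34 (at least 2.42-fold).

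During 7 days of culture the organoids gained part of this repertoire. Between day 0 and day 7 (limma on the 6 organoid arrays), 29 of 59 members tested were higher at day 7, 13 were lower and 17 were not called. That is 49.2% higher and 22.0% lower, against 24.6% higher and 42.0% lower over all 21955 genes tested; the median difference was 0.56 for the members (0.50 with undetected sides set at their bounds) and -0.20 for all genes. Under normexp background correction the split among members was 24 higher and 26 lower. All day 7 arrays and 1 day 0 array were on slide 2, and the other 2 day 0 arrays were on slide 1. Within slide 2 alone 26 members were higher and 12 lower. No share over all genes was set beside either of these splits. Across the alternative settings, counts over all genes ran from 4201 to 5807 higher, against 5398, and from 7829 to 15028 lower, against 9215.

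Sult1c2, a sulfotransferase known from kidney and stomach, had a large gain. It read -3.91, -4.04 and -6.56 at day 0 and 0.43, 0.08 and 0.74 at day 7, a difference of 5.26 (SE 0.70, adjusted p = 0.000757, 38.2-fold), with 1 day 0 array above background. The groups did not overlap, and day 0 replicate 3 was the lowest; without it the difference was 4.39 (21.0-fold, adjusted p = 8.63e-05). Ugt2b34 was above background on no day 0 array (-6.48, -6.79 and -6.85) and on all 3 at day 7 (-1.56, -1.64 and -2.0), at least 6.41-fold higher. It entered this test only through day 7, so the bound is given without a p-value.

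Ugt1a6b, which conjugates flat phenols, read -0.79, -1.49 and -2.15 at day 0 and 2.98, 3.03 and 3.11 at day 7, 22.9-fold higher (adjusted p = 5.4e-05). A second, much dimmer Ugt1a6b probe, above background on 7 arrays, rose by 2.75 on the log2 scale. Cyp2d26 rose 15.2-fold, from -2.41, -2.87 and -2.98 to 1.41, 0.95 and 1.15 (adjusted p = 1.23e-05). For these genes every day 7 array was above every day 0 array. Cyp2s1, a P450 of epithelia outside the liver, rose 11.7-fold and Gsta3 11.3-fold. Sult1d1 rose at least 8.01-fold, Ugt1a10 at least 4.53-fold and Gsta2 6.73-fold. Gsta2 was above background on 2 day 0 arrays and was lowest in replicate 3, which adds to its fold. Sult1b1, which sulfates thyroid hormone, rose at least 1.83-fold; its difference of 3.04 became -0.02 under normexp. It was above background on no day 0 array and read -3.27, -3.77 and -3.59 at day 7.

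By family, all 5 Cyp2d members tested rose, as did both Cyp4a members tested, both Cyp1 members, both Ugt1a members tested and all 4 Sult1 members tested. Genes undetected at day 0 entered the test only through day 7, where they were high, so these complete counts are partly set by the filter. Among members above background on all 6 arrays, 3 of 3 Cyp2d, 2 of 2 Cyp4a, 1 of 1 Ugt1a and 1 of 1 Sult1 rose. Of 4 such Cyp2j members 1 rose and 1 fell, and of 4 Cyp2c members 0 rose and 1 fell. The 2 Cyp4a members are Cyp4a10 and Cyp4a31, whose like probes make them uncertain as separate readings. Over all 46 such members 20 rose and 12 fell. No share over all genes was set beside these restricted counts, so they do not show whether members differ from other genes. Among the glutathione S-transferases, all 18 were tested: 10 rose, 5 fell and 3 were not called. The classes divided: Gsta2 and Gsta3 rose and Gsta4 was not called; Gstt1 and Gstt3 rose and Gstt2 was not called; Gsto1 rose and Gsto2 was not called; Gstp1, Gstp2 and Gstk1 fell. The mu class divided within 1 gene cluster on chromosome 3, between 107701101 and 107846847 (mm9), where Gstm2, Gstm3, Gstm4 and Gstm6 rose while Gstm5 and Gstm7 fell. Gstm1, whose probe the file places on chromosome 5, rose 2.63-fold. For Gstm4 the direction depends on the probe: the chosen probe gave a difference of 1.07 and a second one of similar mean level -0.59.

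The largest falls had measured levels at both times for 9 of 10 genes. Gstm7, a mu-class transferase, fell from 0.57, 0.14 and 0.67 to -1.72, -1.74 and -1.71, 4.52-fold lower (adjusted p = 4.45e-05). Cyp2r1, a vitamin D 25-hydroxylase, fell from 1.69, 1.73 and 1.33 to -0.43, -0.66 and -0.42, 4.26-fold lower (adjusted p = 3.99e-05); a second, much dimmer probe fell by 0.73 on the log2 scale. Both groups of arrays stood apart for these 2 genes. Gstm5 was 2.11-fold lower, the kappa-class Gstk1 1.89-fold, Cyp2c37 1.82-fold, Sult4a1 1.73-fold, Cyp2t4 1.70-fold, Cyp4f18 1.51-fold and Gstp1 1.44-fold.

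Ugt2b37, the other Ugt2b gene tested, went down, by at least 2.62-fold. It was above background on all 3 day 0 arrays (-3.34, -3.83 and -3.76) and on none at day 7 (-6.80, -6.04 and -5.14). It entered this test only through day 0, so the bound is given without a p-value. In kidney the same gene rose from -4.99 at E11.5 to 1.46 at E17.5. Within slide 2 alone the falls of Ugt2b37, Cyp2c37, Cyp2t4 and Cyp4f18 were not called, and Cyp4f18 also lost its call when day 0 replicate 1 or 2, or day 7 replicate 1 or 2, was left out.

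Markers moved with these gains. Of 18 proximal tubule markers 14 were tested, and 11 rose and none fell between day 0 and day 7; the summed level of the list, in units of the array's 75th percentile, was 6.74, 4.67 and 2.48 at day 0 and 42.9, 30.6 and 43.1 at day 7. Day 0 replicate 3, lowest in that sum, was also lowest in Sult1c2, Sult1d1 (-4.39, -4.77 and -6.59) and Gsta2 (-2.49, -2.89 and -4.60). That order rests largely on undetected readings: Sult1d1 was above background on no day 0 array, Sult1c2 on 1 and Gsta2 on 2. Day 0 replicate 1, highest in that sum, also had the most erythroid marker signal (56.1, 21.0 and 16.9). The part of these markers in the differences was not tested. The defining liver gene Alb was low on every array (-7.17 to -5.23), although 4 of 6 hepatocyte list members tested rose (Afp, Ttr, Serpina1a and Fgb) and Apoa2 fell.

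The gains in culture and the gains in kidney come from separate arrays and can be set side by side. Of the 59 members tested in both, 29 rose in the organoids and 28 rose across kidney stages, and 22 were in both lists, which is 75.9% of the first and 78.6% of the second. Over all genes tested in both, the shared calls were 27.6% of the first list and 76.1% of the second. The 7 that rose in organoids only by these calls were Cyp1b1, Cyp2d13, Gstm1, Gstm4, Gstm6, Gsto1 and Ugt2b34; the 6 called in kidney only were Cyp2e1, Cyp2j6, Cyp2j8, Cyp2j13, Gstt2 and Ugt2b37. A call in one and not in the other is no test of a difference.

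**Figure D2:**
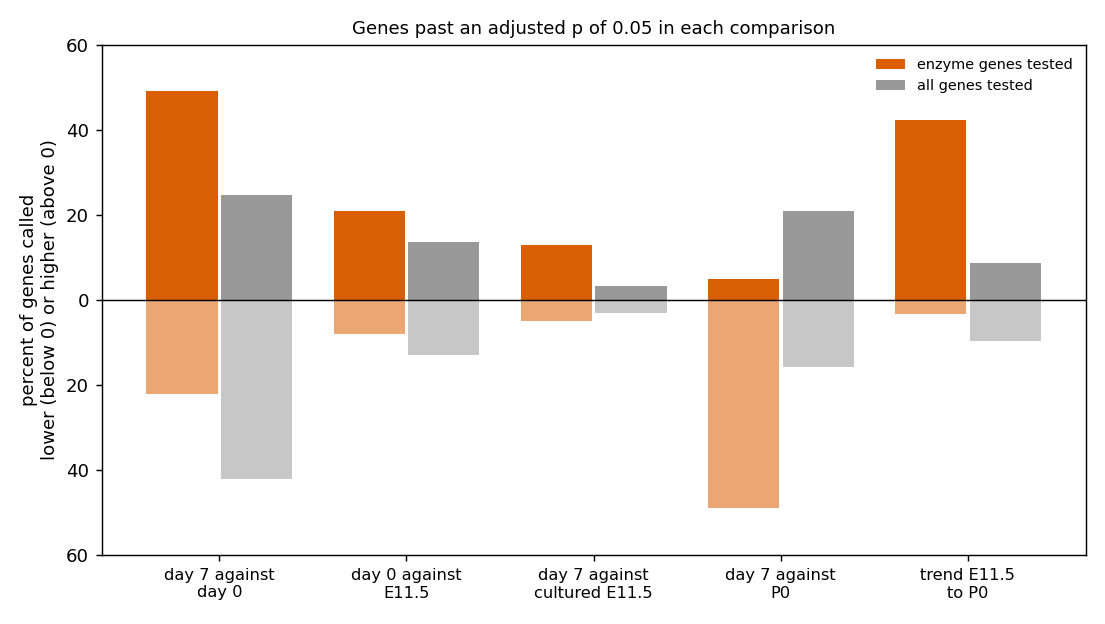
Percent of genes called higher (above 0) or lower (below 0, paler) at an adjusted p of 0.05 in each limma comparison (x axis), for the members tested and for all genes tested. Members were called higher more often than all genes in the organoids over time and across kidney stages (49.2% against 24.6%, 42.4% against 8.74%), and lower more often at day 7 against P0 (48.8% against 15.6%).

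At day 7, 39 enzyme genes read lower in the organoids than in the newborn kidney and 4 higher. Of 80 members tested (limma on all 12 arrays, with the single P0 array assumed to vary like the organoid replicates), 39 were lower at day 7, 4 were higher and 37 were not called. Over all 23859 genes tested, 15.6% were lower and 21.0% higher; among members it was 48.8% and 5.0%. The median difference was -1.04 for the members, -0.66 with undetected sides set at their bounds, and 0.06 for all genes. A gene undetected at day 7 entered this test only through P0, where it was high. Of the 57 members above background on every array of both groups, 24 were lower and 4 higher. No share over all genes under that restriction was set beside this count. Kidney arrays were all on slide 1 and day 7 arrays all on slide 2, linked only by the day 0 arrays. With slide as a block 34 members were lower and none higher, again with no share over all genes beside them.

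Cyp4a32 was the most reduced: its level of 1.94 at P0 compared with -6.96, -7.24 and -7.25 at day 7, none of them above background. That is at least 125-fold lower. It entered this test only through P0, so the bound is given without a p-value. Cyp2j5 (-0.62 at P0; -7.32, -7.14 and -7.22 at day 7) was at least 21.3-fold lower, Ugt2b37 at least 46.2-fold, Cyp4a14 at least 40.3-fold and Ugt2b36 at least 19.0-fold. All 4 were above background on no day 7 array. Gsta2 was measurable on both sides: 5.39 at P0 against -0.96, 0.06 and -0.84, 62.7-fold lower (adjusted p = 0.00349).

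All 6 Cyp4a and all 6 Cyp2j members were lower than at P0, as were all 5 Ugt2b members tested, 5 of 7 Cyp2d members tested and 4 of 5 Sult1 members. These counts too are partly set by the filter. Among members above background on all arrays of both groups, 2 of 2 Cyp4a, 4 of 4 Cyp2j, 1 of 1 Ugt2b, 5 of 5 Cyp2d and 3 of 4 Sult1 were lower. In that set 0 of 4 Cyp2c members were called, and of 5 Cyp4f members 1 was higher and 0 lower. The 2 Cyp4a members are Cyp4a10 and Cyp4a31, whose like probes make them uncertain as separate readings. Of the glutathione S-transferases, 4 of 18 were lower (Gsta2, Gstt2, Gstk1 and Gstm5) and 14 were not called, a count that shows no equality. On the same arrays, 18 of 18 proximal tubule markers were lower than at P0, with a summed level of 1050 at P0 against 30.6 to 43.1 at day 7. The part of that in the enzyme differences was not tested, and a smaller share of tubule cells and less RNA per cell cannot be told apart.

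Higher than at P0 were Cyp1a1 (1.29, 2.44-fold, adjusted p = 0.0279), Cyp1b1 (1.06, 2.08-fold, adjusted p = 0.0128), Cyp4f16 (0.51, adjusted p = 0.0344) and Sult4a1 (0.46, adjusted p = 0.0498). With slide as a block none of these 4 kept its call (adjusted p = 0.207, 0.129, 0.28 and 0.299 in that order). Cyp1a1 also lost it without day 7 replicate 1 or 3, Cyp4f16 without any 1 day 7 replicate, and Sult4a1 without any 1 array but day 0 replicate 2; 2, 2 and 1 members were higher without day 7 replicate 1, 2 and 3.

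A description of maturity by stage used the 41 members more than 4-fold higher at P0 than at E11.5, a threshold chosen after the data had been seen. Their day 7 mean lay below the E15.5 kidney for 32 and at or above the P0 kidney for 3 (Cyp1a1, Cyp2s1 and Gstt3). At day 7, 25 were above background on all 3 arrays and 12 on none. A share of the E11.5 to P0 rise, on the log2 scale, is measured only for the 18 of them above background at E11.5, at P0 and on all 3 day 7 arrays. The median share of these 18 was 41.5% at day 7 and 28.2% in the cultured E11.5 kidney, where all 18 were above background as well. Genes undetected at day 7 are left out of it. Over all 41, with undetected readings taken as they stand, the medians were 32.7% and 23.4%. These counts and shares were not taken over all genes passing the same threshold, so they do not show whether members differ from other genes. Single genes ranged widely: the day 7 share was 101% for Cyp2s1, 88.7% for Cyp4v3, 83.5% for Gstt1, 77.0% for Gsta3, 40.5% for Gsta2, 26.6% for Cyp4a10, 7.06% for Gstt2 and -2.59% for Cyp2e1.

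**Figure D3:**
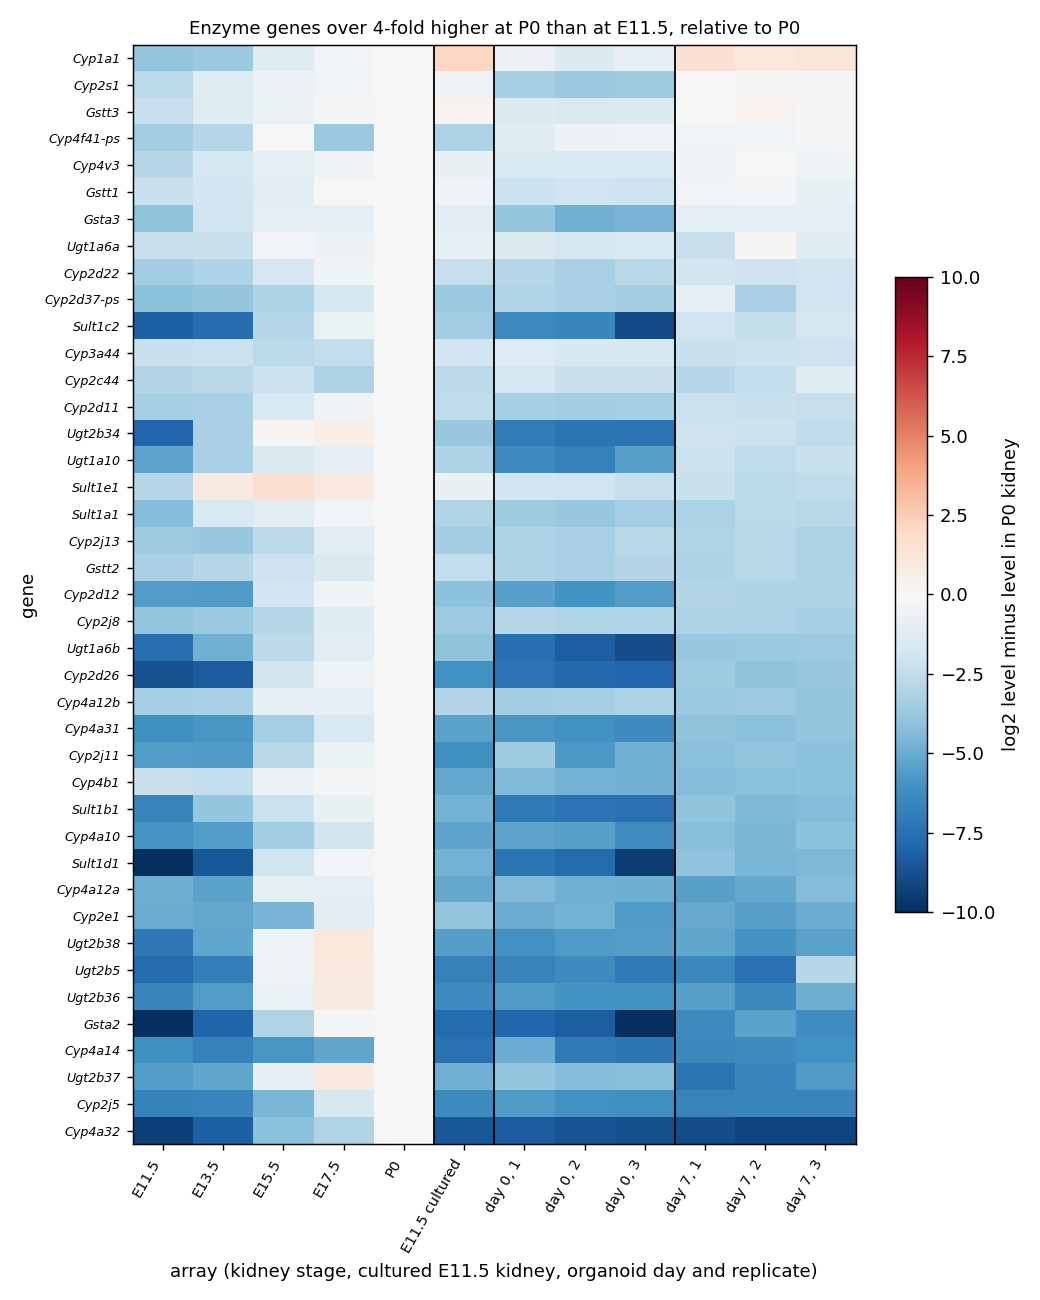
Heat map of the 41 members more than 4-fold higher at P0 than at E11.5 (rows, ordered by day 7 mean minus P0) on the 12 arrays (columns); colour is the log2 level minus the same gene's level at P0, blue lower and red higher. The day 7 columns are below P0 for most rows, palest at the top (Cyp1a1, Cyp2s1, Gstt3) and darkest at the bottom (Cyp2j5, Cyp4a32).

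Before culture the organoids already differed from the E11.5 kidney in some members. Of 62 tested (12-array fit), 13 were higher at day 0 and 5 lower; 13.6% and 12.8% of all 23306 genes were called in those directions, against 21.0% and 8.06% of members. The highest were Cyp4f13 (2.85-fold), the fatty acid hydroxylase Cyp4v3 (2.57-fold), Cyp4f17 (2.50-fold), Cyp2r1 (2.30-fold), Cyp2d26 (2.04-fold) and Cyp2j6 (2.03-fold). The lower ones were Cyp4b1 (at least 1.29-fold), Cyp4f37 (at least 1.60-fold), the cholesterol sulfotransferase Sult2b1 (3.14-fold), Cyp2s1 (1.81-fold) and Cyp2d13 (-5.46 against -4.66, with no day 0 array above background).

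On slide 1 alone, with day 0 replicates 1 and 2, 4 members were higher (Cyp2r1, Cyp4f13, Cyp4v3 and Gsta2) and 4 lower (Cyp2b13, Cyp4b1, Sult2a7 and Sult2b1). Under normexp 40 were higher and 1 lower, and the differences of Cyp4b1, Cyp4f37 and Cyp2d13 turned upward. No share over all genes was set beside these slide 1 and normexp counts. Across the alternative settings, counts over all genes ran from 565 to 9890 higher and from 1204 to 3904 lower. Proximal tubule markers also differed at this point: 7 of 13 tested were higher at day 0 than at E11.5 and 1 was lower, and Kap, an androgen-regulated tubule gene, read 0.11, -0.48 and -2.07 at day 0 against -6.08 at E11.5. All 8 endothelial markers and 5 of 7 macrophage markers were lower at day 0 than at E11.5; their part was not tested.

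The E11.5 kidney cultured for 7 days also gained many of these enzymes. Against the fresh E11.5 kidney, 1 array each, 24 of 69 members passed 2-fold upward and 9 downward (11.3% and 8.41% of all genes). Undetected readings were taken as they stood, so some of these have bounds under 2-fold, as Cyp4b1 and Cyp2b13 below. Under normexp 12 members passed upward and 1 downward, with no share over all genes set beside them. On the same 2 arrays 12 of 13 proximal tubule markers passed 2-fold upward and 1 downward, 6 of 10 collecting duct and urothelial markers upward and 1 downward, and all 8 erythroid markers downward; their part was not tested. Among those above background only after culture were Sult1c2 (at least 19.3-fold higher), Cyp1a1 (-1.24 against -7.31, at least 16.8-fold), Sult1d1 (at least 11.7-fold) and Ugt2b34 (at least 4.15-fold). Downward, Cyp4b1-ps2 was at least 5.58-fold lower, Gstm7 3.92-fold, Cyp4b1 at least 1.91-fold and Cyp2b13 at least 1.05-fold.

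These arrays are separate from the organoid arrays. Of 58 members assessed in both, 29 rose in organoids and 23 in cultured kidney, and 22 were in both lists (75.9% and 95.7%, against 39.0% and 86.6% over all genes); Cyp2e1 was the one in cultured kidney only. Of the downward calls 13 and 2, 1 was shared (Gstm7).

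The change over 7 days in organoids was then set against that in kidney with an interaction term, a test added after the data had been seen. Of 70 members tested, the organoid change was larger for 4 and smaller for 5 (5.71% and 7.14% of members, against 6.38% and 5.92% of all genes), shares near the background. The kidney side has 1 array at each time, so the spread comes from the organoid arrays alone. Cyp1a1 rose by 2.22 in organoids and by 6.07 in kidney (difference -3.84, SE 0.47, adjusted p = 0.00944); it was not above background in fresh E11.5 kidney, so 6.07 is not a measured rise, and the bound there is at least 16.8-fold. Cyp2r1 fell in organoids and hardly moved in kidney (0.39 and 0.60), a difference of -2.31 (adjusted p = 0.00897).

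**Figure D4:**
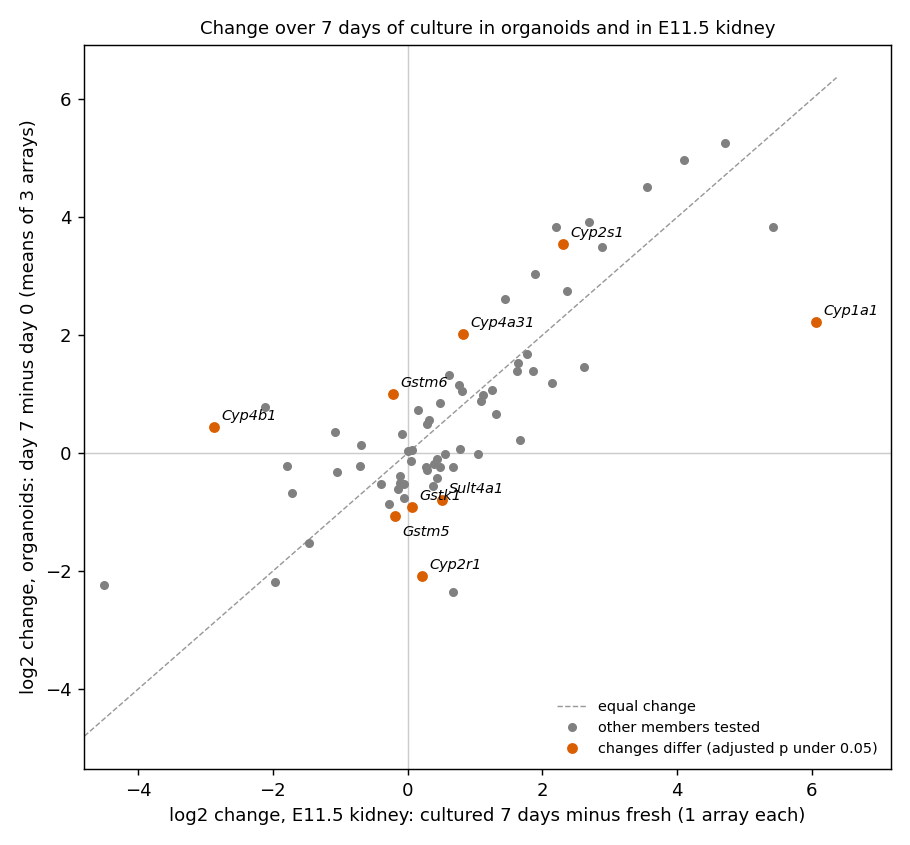
Change over 7 days of culture on the log2 scale for the 70 members tested: E11.5 kidney (x axis, 1 array at each time) against organoids (y axis, means of 3 arrays); the dashed line marks equal change and orange marks the 9 members whose changes differed at an adjusted p of 0.05. Cyp1a1 lies far to the right of the line (6.07 in kidney, 2.22 in organoids) and Cyp2r1 below it.

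The last comparison set day 7 organoids against the kidney cultured for the same time. At day 7, 8 of 62 members were higher and 3 lower (12.9% and 4.84%, against 3.23% and 3.07% of all genes). Cyp4f41-ps was at least 1.73-fold higher, Cyp2d26 4.78-fold, Ugt2b34 2.88-fold, Gstm6 2.77-fold, Cyp4a31 2.47-fold and Cyp2d12 2.12-fold; Sult4a1 was 2.19-fold lower, Cyp2r1 2.16-fold and Gstk1 1.45-fold. With slide as a block none of these was called and only Sult1c2 was, a gene named here after its value was seen; its slide term rests on the day 0 arrays, of which replicate 3 was the low one. Single organoid arrays also moved these counts: 3 members were higher without day 7 replicate 1 and 4 without day 7 replicate 3, and 1 was lower without day 0 replicate 1 or any 1 day 7 replicate, against 6 without day 0 replicate 3. Cyp1b1 was nearly level between them, at 1.80, 1.90 and 1.95 at day 7 and 1.86 in cultured kidney.

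Several regulators of the families moved in the same comparisons, in a list of 13 receptors and transcription factors. Of 12 tested, 7 rose and 3 fell between day 0 and day 7. Hnf4a rose from -1.80, -2.44 and -3.52 to 3.15, 2.62 and 3.31 (49.1-fold, adjusted p = 7.83e-05) and was still lower than at P0 (5.69-fold, adjusted p = 0.0258). Ahr, the dioxin receptor, rose 11.8-fold, to levels of 2.15, 2.47 and 1.66 that bracket the 2.10 of P0.

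Targets of AHR outside the families went both ways. Ahrr, its repressor and target, rose 6.47-fold and was 4.72-fold above P0 (adjusted p = 0.00364), and it read -0.62 in cultured against -3.37 in fresh E11.5 kidney. Of the 4 listed targets, Ahrr and Nqo1 rose and Aldh3a1 and Tiparp fell between day 0 and day 7 (Tiparp 1.74-fold, adjusted p = 0.00081). Of 10 NRF2 target genes outside the families, 8 rose and 1 fell; Nqo1 rose 2.60-fold. The NRF2 gene itself, Nfe2l2, rose 1.57-fold.

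P450s take their electrons from a set of donor proteins. Of 8 listed donors, 2 rose and 1 fell between day 0 and day 7, and P450 reductase, Por, read 3.94, 3.80 and 3.68 at day 0 and 3.60, 3.75 and 3.67 at day 7 (adjusted p = 0.271); at P0 it was 4.30, 1.54-fold above day 7. Other phase I enzymes rose in 12 of 22 tested and fell in 4. Of these, the flavin monooxygenase Fmo1 rose at least 10.9-fold and stayed 14.5-fold below P0, whereas the epoxide hydrolase Ephx1 rose 9.01-fold to 2.26-fold above P0 (adjusted p = 0.00121).

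Other phase II and cofactor genes rose in 13 of 22 tested and fell in 4, and 15 of 22 were lower at day 7 than at P0. Efflux transporters rose in 6 of 8 tested and fell in 1: Slc47a1, the apical organic cation exporter, rose at least 8.58-fold and Abcc2 at least 2.21-fold, and both stayed below P0 (4.67-fold and 5.25-fold). Abcb1a, a P-glycoprotein gene, read -4.17, -4.79 and -4.15 at day 7 against 0.34 at P0, 26.1-fold lower.

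Markers of other cell types were followed on the same arrays. Between day 0 and day 7, all 8 endothelial markers rose, 8 of 9 collecting duct and urothelial markers rose and 1 fell, 5 of 8 stromal markers rose and 3 fell, and 2 of 4 macrophage markers rose and 1 fell. All 6 erythroid markers tested fell, 5 of 7 skeletal muscle markers fell and 1 rose, and 2 of 4 adrenal and gonadal steroid cell markers fell and 1 rose. At day 7 against P0, all 8 stromal markers and 3 of 6 skeletal muscle markers were higher. All 6 erythroid markers, 5 of 8 endothelial and 2 of 7 macrophage markers were lower. Of 10 collecting duct and urothelial markers 1 was higher and 2 lower, and of 6 steroid cell markers 1 was higher and 1 lower. None of these was tested as a source of the enzyme differences.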

How the data were processed

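Expression was measured on 12 one-colour Agilent arrays, 1 per sample, in 8 groups: 5 kidney stages and cultured E11.5 kidney with 1 array each, and organoids at day 0 and day 7 with 3 each. Per the file headers, the authors scanned and extracted each array with Feature Extraction 11.5.1.1, which gives a background-subtracted processed signal intensity per spot and probe positions on mm9; the submitters' processing notes name Agilent Feature Extraction 10.7.3.1. The authors' deposited value table holds log2 values; set against the processed intensity on each array it differed from log2 signal minus the 75th percentile by a constant of 0.005 to 0.0096, so scale and centring are known, and it was used as an alternative.

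From the intensity, spots of a probe were averaged after leaving out control and outlier spots, and values were taken as log2 relative to the array's 75th percentile. Per gene name the probe with the highest mean over 12 arrays was kept (34650 names). Genes entered a comparison of groups when all arrays of either group were well above background. The stage trend took genes above background on any of its arrays. The interaction took genes above background on all arrays of any of its groups. Tests used limma 3.58.1 (R 4.3.3) with Benjamini-Hochberg adjustment over all genes tested, called at 0.05; the procedure was tested on simulated data. Pairs of single arrays have no test. The number of arrays limits the precision. Genes named are those called, without overlap between replicated groups and above background on every array of the brighter group: up to 10 each way for day 7 against day 0, up to 6 for other tests, up to 4 for array pairs and up to 3 per pathway list, with members above background on all arrays allowed besides. Members and lists were chosen with earlier results of these data known. Alternatives were normexp (offset 50), quantile and median scaling, the authors' table, averaged probes, other background filters, moderated trend, slide, replicate number and leaving out arrays. The 95 members were matched to RefSeq, 93 by accession and the others by symbol. One regulator and its motif are not reported here.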

Additional observations from a re-analysis of the deposited data

Results flagged for a closer look

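The 7-day change differed between organoids and E11.5 kidney for 9 members, by an interaction term in limma added after the data had been seen; the kidney side is 1 array at each time, the spread comes from the organoid arrays alone, and no array was left out in turn. The shares called, 5.71% and 7.14% of members, were near those of all genes (6.38% and 5.92%), so the 9 say nothing particular to these enzymes. The organoid change was smaller, or more negative, for 5. For Cyp1a1 it was 2.22 against 6.07 in kidney, a difference of -3.84 (SE 0.47, adjusted p = 0.00944), with Cyp1a1 not above background in fresh E11.5 kidney, where the bound on its rise is at least 16.8-fold; for Cyp2r1 it was -2.09 against 0.21, a difference of -2.31 (SE 0.28, adjusted p = 0.00897). Sult4a1 differed by -1.3 (adjusted p = 0.017), falling by 0.79 in organoids and reading 0.51 higher in kidney. Gstk1 differed by -0.99 (adjusted p = 0.0167) and Gstm5 by -0.9 (adjusted p = 0.0411).

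The organoid change was larger for 4. Cyp4b1 differed by 3.31 (adjusted p = 0.00356), but it was above background on no organoid array and not in the cultured kidney, so the value rests on its level in fresh E11.5 kidney. Cyp2s1 differed by 1.24 (adjusted p = 0.0389), Gstm6 by 1.21 (adjusted p = 0.0181) and Cyp4a31 by 1.2 (adjusted p = 0.0468). With slide as a block, Cyp2s1 (1.28, adjusted p = 0.0797) and Gstm5 (-0.98, adjusted p = 0.0661) were no longer called, and the other 7 were.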

How the results depend on the processing

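Of 104 gene and comparison pairs named or followed, 1076 of 1080 values under the alternatives kept their direction. The 4 that turned did so under normexp: Sult1b1 at day 7 against day 0 (-0.02), and Cyp4b1 (0.27), Cyp4f37 (0.27) and Cyp2d13 (0.47) at day 0 against E11.5. This tally is no measure of robustness, because most pairs were picked for large changes in these data. The other background filters and the moderated trend left each difference as it was. The authors' table moved it only by a constant, and leaving out an array of neither group compared could not move it. Counts of members called moved by over 1.5 times as follows. The causes were not tested, and no share over all genes under the same setting was set beside these counts. Under normexp they were 26 lower for day 7 against day 0, 40 higher and 1 lower for day 0 against E11.5, 16 higher and 7 lower for day 7 against cultured kidney, 12 higher for day 7 against P0 and 5 lower across stages. For array pairs normexp gave 4 higher and 0 lower at E13.5, 14 higher at E15.5, 17 and 0 at E17.5, 8 and 0 at P0, and 12 and 1 for cultured kidney. With no background filter 21 were lower for day 7 against day 0, 21 higher for day 0 against E11.5 and 2 higher for day 7 against P0. With only genes above background on every array, which removes genes undetected in 1 group, 2 were lower for day 0 against E11.5 and 17 lower for day 7 against P0. Averaged probes gave 1 lower against cultured kidney, and averaged probes, quantile and median scaling gave 1 lower at E15.5. With slide as a block 1 was higher and 0 lower against cultured kidney and 0 higher against P0; slide 1 alone gave 4 higher for day 0 against E11.5. Leaving out 1 array gave 3 to 10 higher and 1 to 6 lower against cultured kidney, 1 to 4 higher against P0, and 0 to 29 higher and 0 to 2 lower across stages. Over all genes, normexp and other settings moved day 0 against E11.5 between 565 and 9890 higher, against 3179, and day 7 against cultured kidney between 127 and 1962 higher, against 739. Same-numbered organoid arrays deviated with correlations of -0.056, -0.22 and -0.049, so the numbers do not pair them; a fit with a replicate block gave 30 higher and 11 lower for day 7 against day 0. The day 0 arrays had the lowest 75th percentile signal, which limits what could be detected there.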
